A study of Mus musculus with 9 samples.

Results

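The genes described are 33 markers of liver macrophages, 12 of resident Kupffer cells and 21 of recruited macrophages or of myeloid cells in general, among 41388 genes in the deposited tables. They were chosen by name, as listed markers, and matched to the tables through their Ensembl identifiers. The resident genes run from Clec4f to Slc11a1 (Clec4f, Timd4, Vsig4, Marco, Cd5l, Folr2, Adgre1, Csf1r, C1qa, C1qb, C1qc and Slc11a1). The recruited and shared genes are Ccr2, Ly6c2, Itgam, Itgax, Trem2, Gpnmb, Lyz2, Lgals3, Cd68, Ccl2, Cx3cr1, Cd74, H2-Aa, H2-Ab1, H2-Eb1, Tyrobp, Fcer1g, Ctss, Cybb, Spi1 and Laptm5. All 33 were found and all 33 passed the filter on low counts.

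RNA was sequenced from whole liver of male C57BL/6J mice of 3 genotypes. DKO mice combine a germline deletion of Fabp1 with a deletion of Mttp in the liver alone, MttpLKO mice carry the liver deletion of Mttp alone, and control mice have floxed Mttp. Every mouse, controls included, had received the liver carcinogen diethylnitrosamine (25 mg/kg, intraperitoneal) at 14 days of age, was fed chow and was sampled at 6 months. Each library is RNA pooled from 3 mice, with 3 pools per genotype, 9 libraries and 27 mice in all, so the spread between libraries is that between pools, which is smaller than that between mice. The promoter or Cre line behind the liver deletion is not given in the sources used here, and no mice lacking Fabp1 alone were among the samples. Whether the tissue held tumour is not given in the labels.

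Kupffer cells are the macrophages that live in the liver sinusoids, where they clear particles, lipoproteins and dying cells from the blood. Their identity rests on a set of surface receptors such as CLEC4F, TIM4, VSIG4 and MARCO. When Kupffer cells are lost or the liver is injured, blood monocytes that carry CCR2 enter the tissue and mature into macrophages. In fatty and injured mouse liver some of these take on a lipid-associated state marked by Trem2 and Gpnmb. In bulk liver RNA, fewer cells of a type and less RNA per cell cannot be told apart.

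Both deletions were visible in the libraries. Mttp stood at 3.24 to 5.79 CPM (counts scaled to library size) in DKO and 6.14 to 9.78 CPM in MttpLKO, against 69.4 to 181 CPM in control, and Fabp1 stood at 50.3 to 78.0 CPM in DKO, 3380 to 4980 CPM in MttpLKO and 6060 to 6850 CPM in control. The DKO libraries held 23268389 to 23429588 counts and the MttpLKO libraries 26362408 to 27918197, against 24995426 to 27080442 in the control libraries. On the first principal component of all tested genes, DKO replicate 3 scored 26.7 and MttpLKO replicate 3 scored -31.8, while the other 7 libraries lay between -7.29 and 6.38. Those libraries also stand apart in the macrophage genes, as given below with values for each library. Throughout, CPM is scaled by TMM library size. RPKM (reads scaled to gene length and library size) is that CPM per kilobase of the deposited gene length. A gene is said to have risen or fallen only where edgeR's adjusted p is below 0.05.

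In control liver the macrophage genes spanned a wide range of levels. Per length, Cd74, the invariant chain of class II antigen presentation, was the highest of the 33 at 48.5 ± 11.9 RPKM (SD, n = 3), followed by the complement gene C1qa at 27.2 ± 5.05 RPKM. Clec4f, a lectin made in mice by Kupffer cells, stood at 16.6 ± 2.65 RPKM and Cd5l, a secreted macrophage survival factor, at 12.4 ± 3.42 RPKM. The monocyte genes were near the lower end, with Ccr2 at 0.179 ± 0.0531 RPKM and Ly6c2 at 0.146 ± 0.0669 RPKM. Gpnmb was the lowest of the 33 at 0.0687 ± 0.0364 RPKM.

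Promoter windows of 300 bases, 250 before and 50 after the RefSeq start (GRCm38.p6), were found for 25 of the 33 genes. They were searched on both strands for the letters GAGGAAG and AGGAAG, which ETS factors such as PU.1 (the product of Spi1) recognise, and for TGANTCA, read by AP-1 factors and their relatives. AGGAAG is contained in GAGGAAG. The 5 printed here are those of Marco and C1qc from the resident genes, and of Gpnmb, H2-Aa and H2-Eb1 from the recruited and shared genes, since the values below turn on them. The capitals in the Marco window (chr1:120504975-120505274, minus strand) mark GAGGAAG, and those in the C1qc window (chr4:136892865-136893164, minus strand) mark the same letters read from the opposite strand. In the Gpnmb window (chr6:49036268-49036567, plus strand) they mark TGANTCA. In the windows of the class II genes H2-Aa (chr17:34287774-34288073, minus strand) and H2-Eb1 (chr17:34305617-34305916, plus strand) they mark CTGATTGG, the inverted CCAAT letters of the class II Y box, added to the search after the first results.
Marco: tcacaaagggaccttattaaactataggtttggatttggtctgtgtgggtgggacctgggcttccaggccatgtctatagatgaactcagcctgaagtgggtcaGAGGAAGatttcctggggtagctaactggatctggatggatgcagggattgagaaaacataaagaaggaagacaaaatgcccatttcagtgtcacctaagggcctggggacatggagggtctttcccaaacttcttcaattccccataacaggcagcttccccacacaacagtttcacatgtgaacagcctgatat
C1qc: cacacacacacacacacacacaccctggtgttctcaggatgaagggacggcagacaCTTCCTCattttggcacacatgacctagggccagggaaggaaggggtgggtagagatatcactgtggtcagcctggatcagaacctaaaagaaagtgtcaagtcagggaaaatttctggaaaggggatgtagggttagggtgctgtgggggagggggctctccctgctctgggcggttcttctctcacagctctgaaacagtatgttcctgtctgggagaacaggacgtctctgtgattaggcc
Gpnmb: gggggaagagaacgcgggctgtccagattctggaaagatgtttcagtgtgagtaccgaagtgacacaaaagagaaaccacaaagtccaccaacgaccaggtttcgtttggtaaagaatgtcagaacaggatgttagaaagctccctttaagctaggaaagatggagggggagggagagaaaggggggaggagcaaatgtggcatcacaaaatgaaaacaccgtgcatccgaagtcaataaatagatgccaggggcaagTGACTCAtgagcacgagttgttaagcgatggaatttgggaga
H2-Aa: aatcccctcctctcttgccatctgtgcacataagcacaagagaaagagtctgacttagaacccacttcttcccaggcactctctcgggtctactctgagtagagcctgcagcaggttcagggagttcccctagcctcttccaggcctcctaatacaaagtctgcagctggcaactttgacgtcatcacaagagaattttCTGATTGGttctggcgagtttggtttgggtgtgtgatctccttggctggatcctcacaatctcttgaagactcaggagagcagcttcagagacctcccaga
H2-Eb1: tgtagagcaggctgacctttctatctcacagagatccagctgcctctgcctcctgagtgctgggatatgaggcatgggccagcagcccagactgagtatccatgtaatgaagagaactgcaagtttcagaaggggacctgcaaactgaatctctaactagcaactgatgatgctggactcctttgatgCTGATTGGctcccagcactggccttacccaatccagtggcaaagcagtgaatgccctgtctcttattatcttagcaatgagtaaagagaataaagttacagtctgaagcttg
GAGGAAG lay in 3 of the 9 resident windows (Marco, Cd5l and C1qc) and 5 of the 16 recruited ones (Ly6c2, Itgam, Trem2, Ctss and Laptm5), against 15.4% of 27025 genes with a window. AGGAAG lay in 6 of 9 and 7 of 16, against 38.4% of genes. TGANTCA lay in 1 of 9 (Folr2) and 5 of 16 (Itgax, Trem2, Gpnmb, Cd68 and Cybb), against 8.97% of genes. CTGATTGG lay in none of the 9 and in the 2 class II windows of the 16, against 4.70% of genes, and the E box letters CACGTG, also added later, lay in none of the 25, against 8.09%. These matches describe the letters and are not binding sites.

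In DKO livers the resident genes were at or above the control level in 2 of the 3 pools and below it in the third. MttpLKO livers showed the opposite split, with 2 pools low and 1 near the control level. The mean over the 12 resident genes of log2(CPM + 1), set against the control mean, was 0.38, 0.49 and -0.54 in DKO replicates 1, 2 and 3 and -1.11, -0.86 and 0.18 in MttpLKO replicates 1, 2 and 3, against 0.22, -0.11 and -0.11 in the control replicates. MttpLKO replicate 1 was the lowest of the 9 libraries for 11 of the 12 genes. The 21 recruited and shared genes followed a different order, with 0.48, 0.33 and -0.34 in DKO, -0.31, -0.07 and 0.97 in MttpLKO, and 0.16, -0.06 and -0.10 in control. MttpLKO replicate 3 was the highest of the 9 libraries for 17 of the 21.

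**Figure D1:**
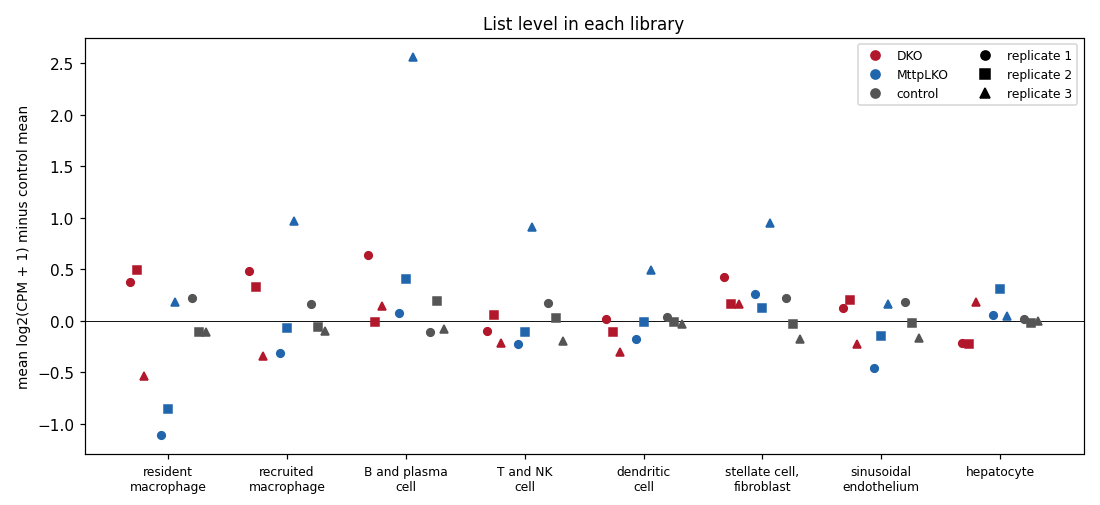
Mean of log2(CPM + 1) over each marker list in each of the 9 libraries, minus the control mean (y axis, log2 units), for DKO (red), MttpLKO (blue) and control (grey), with replicates by symbol. Resident genes were lowest in DKO replicate 3 (-0.54) and in MttpLKO replicates 1 and 2 (-1.11 and -0.86), while MttpLKO replicate 3 was highest for recruited genes (0.97) and for B and plasma cell genes (2.56).

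None of the 33 genes passed edgeR's quasi-likelihood test with Benjamini-Hochberg adjustment in any comparison. In DKO over MttpLKO 0.4% of the 14741 tested genes were called, in DKO over control 0.332%, and in MttpLKO over control 0.346%. DESeq2 called 1 of the 33 in DKO over MttpLKO (Marco, adjusted p = 0.00515), none in DKO over control and 1 in MttpLKO over control (Gpnmb, adjusted p = 0.00981). limma-voom called 0 in each. At an unadjusted edgeR p below 0.05 stood 6 of the 33 in DKO over MttpLKO, where 9.1% of all genes did, 1 of the 33 in DKO over control, against 11.2% of all genes, and 6 of the 33 in MttpLKO over control, against 6.97%. The 6 in DKO over MttpLKO were Marco, Timd4, Folr2, Clec4f and Cd5l with higher means and Ccr2 with a lower mean. In MttpLKO over control they were Folr2, Marco, Clec4f and Cd5l with lower means and Gpnmb and Ccr2 with higher means. The single gene in DKO over control was Gpnmb, with a higher mean. For 0 of the 33 genes did the DKO and control pools fail to overlap, where 18.1% of all tested genes did. DKO over MttpLKO and DKO over control share the DKO libraries, and each comparison shares a group with each of the others, so their values are given side by side and not as support for one another.

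The median log2 fold change of the 12 resident genes was 0.76 in DKO over MttpLKO (12 higher, 0 lower), 0.21 in DKO over control (10 higher, 2 lower) and -0.57 in MttpLKO over control (2 higher, 10 lower). Over the 21 recruited and shared genes it was -0.14 (8 higher, 13 lower), 0.23 (20 higher, 1 lower) and 0.45 (17 higher, 4 lower) in the same order of comparisons. The medians over all tested genes were -0.016, -0.002 and 0.011. Without MttpLKO replicate 3 the recruited median was 0.55 in DKO over MttpLKO and -0.38 in MttpLKO over control, both of the opposite sign, and the resident medians were 1.55 and -1.29. The recruited median in DKO over MttpLKO was also positive without DKO replicate 3, at 0.19 (14 higher, 7 lower), and by limma-voom, at 0.05 (11 higher, 10 lower). The medians in DKO over control rest on single DKO pools. Without DKO replicate 1 the resident median there was 0.05 (7 higher, 5 lower) and the recruited median 0.05 (13 higher, 8 lower), and without DKO replicate 2 they were 0.03 (6 higher, 6 lower) and 0.15 (14 higher, 7 lower). Without DKO replicate 3 they were 0.50 and 0.47.

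Of the resident genes with an unadjusted p below 0.05, Marco, Folr2, Clec4f and Timd4 encode receptors of Kupffer cells. Marco, a scavenger receptor with a collagen-like stem (chromosome 1, 120474538 to 120505024), held 5.06, 7.88 and 4.48 CPM in DKO replicates 1, 2 and 3 and 1.15, 2.13 and 3.11 CPM in MttpLKO, against 3.52, 5.42 and 4.45 CPM in control. All 3 MttpLKO pools lay below all DKO and all control pools, and Marco was the only 1 of the 33 genes in which DKO and MttpLKO did not overlap (5.67% of all tested genes were higher in DKO without overlap). Its log2 fold change was 1.44 ± 0.34 (SE) in DKO over MttpLKO, 0.38 ± 0.33 in DKO over control and -1.06 ± 0.34 in MttpLKO over control, with adjusted p of 0.163, 0.725 and 0.438 by edgeR's quasi-likelihood test. Over the 17 alternative settings its adjusted p in DKO over MttpLKO ran from 0.00515 to 0.463.

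Clec4f (chromosome 6, 83644542 to 83656187) held 44.4, 50.2 and 22.8 CPM in DKO and 11.8, 13 and 35.2 CPM in MttpLKO, against 48.6, 37.0 and 37.5 CPM in control. MttpLKO replicates 1 and 2 were at about the same low level, MttpLKO replicate 3 reached almost the lowest control pool, and DKO replicate 3 lay between. The log2 fold changes were 0.97 ± 0.39 in DKO over MttpLKO (edgeR adjusted p = 0.49), -0.07 ± 0.39 in DKO over control (0.97) and -1.03 ± 0.39 in MttpLKO over control (0.613). Without MttpLKO replicate 3, Clec4f passed edgeR's test in both comparisons with MttpLKO, at 1.66 for DKO over MttpLKO (edgeR adjusted p = 0.0394) and -1.73 for MttpLKO over control (edgeR adjusted p = 0.0467). Clec4f lies 12.4 Mb from Fabp1 on the same chromosome. Within 15 Mb of Fabp1, 2 of 127 tested genes (1.57%, 1 of them Fabp1) were called in DKO over MttpLKO, against 0.39% elsewhere. The other was Htra2, which starts at 83051266, between Fabp1 and Clec4f and close to Clec4f. Its log2 fold change was 4.44 in DKO over MttpLKO (edgeR adjusted p = 7.14e-08). A part of the strain background around Fabp1 in the Clec4f value was not tested.

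Folr2, a folate receptor of resident macrophages (chromosome 7, 101839990 to 101845331), held 5.75, 5.41 and 2.06 CPM in DKO and 1.22, 1.29 and 2.93 CPM in MttpLKO, against 5.54, 4.03 and 4.38 CPM in control. Every MttpLKO pool lay below every control pool, as did those of Marco and Clec4f, so 3 of the 12 resident genes did not overlap in that direction, where 6.99% of all tested genes did not. Folr2 had log2 fold changes of 1.28 ± 0.42 in DKO over MttpLKO, -0.07 in DKO over control and -1.35 ± 0.41 in MttpLKO over control, and the edgeR adjusted p was 0.35, 0.969 and 0.398. DKO replicate 3 sat below all controls and inside the MttpLKO range.

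Timd4 encodes TIM4, a phosphatidylserine receptor for apoptotic cells that marks long-lived Kupffer cells (chromosome 11, 46810800 to 46844332). It held 1.69, 2.85 and 0.806 CPM in DKO and 0.420, 0.478 and 1.00 CPM in MttpLKO, against 1.33, 0.940 and 1.12 CPM in control. The gene was shallow, with 11 to 67 counts per library. Its log2 fold change was 1.49 ± 0.47 in DKO over MttpLKO (edgeR adjusted p = 0.337), 0.66 ± 0.45 in DKO over control (0.642) and -0.83 ± 0.48 in MttpLKO over control (0.84).

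Vsig4, the complement receptor CRIg that binds C3 fragments (chromosome X, 96247203 to 96293438), held 9.69, 7.11 and 2.78 CPM in DKO and 1.45, 1.98 and 5.63 CPM in MttpLKO, against 6.35, 4.33 and 4.52 CPM in control. The DKO pools spanned the full range from below to above control, and both mutant groups overlapped it. The log2 fold changes were 1.11 ± 0.51 in DKO over MttpLKO (edgeR adjusted p = 0.551), 0.37 ± 0.50 in DKO over control (0.845) and -0.74 ± 0.51 in MttpLKO over control (0.887). Cd5l (chromosome 3, 87357881 to 87371074) held 26.4, 36.6 and 13.8 CPM in DKO and 6.91, 8.34 and 22.1 CPM in MttpLKO, against 32.1, 25.7 and 18.2 CPM in control. Its log2 fold change was 1.04 ± 0.44 in DKO over MttpLKO and -1.03 ± 0.44 in MttpLKO over control, with edgeR adjusted p of 0.509 and 0.674. MttpLKO replicate 3 lay inside the control range for Cd5l, and DKO replicate 3 lay below it.

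The remaining resident genes had smaller log2 fold changes in both comparisons with MttpLKO in the fit of all 9 libraries. For C1q and Csf1r this depended on MttpLKO replicate 3. Without it, C1qa, C1qb, C1qc and Csf1r stood at 1.34, 1.36, 1.44 and 0.98 in DKO over MttpLKO. The genes from Clec4f to Folr2 then stood at 1.66 to 1.98, and Adgre1 and Slc11a1 at 0.65 and 0.66. Adgre1, which encodes the F4/80 antigen (chromosome 17, 57358686 to 57483529), held 3.34, 2.21 and 1.12 CPM in DKO and 1.53, 1.32 and 3.22 CPM in MttpLKO, against 1.70, 1.54 and 1.66 CPM in control. The 3 control pools were close together, while both mutant genotypes had pools above and below them, and its log2 fold change in DKO over control was 0.45 ± 0.42 (edgeR adjusted p = 0.749). Csf1r, the receptor for the macrophage growth factor CSF1, averaged 20.9 ± 7.98 CPM in DKO and 15.2 ± 8.21 CPM in MttpLKO, against 20 ± 4.63 CPM in control (SD, n = 3 each). C1qa, C1qb and C1qc encode the chains of complement C1q, and lie side by side on chromosome 4. They averaged 32.5, 23.5 and 24.9 CPM in DKO and 23.0, 16.2 and 17.0 CPM in MttpLKO, against 28.3, 20.2 and 21.8 CPM in control. MttpLKO replicate 3 held 43.1 CPM of C1qa where MttpLKO replicates 1 and 2 held 11.5 and 14.4. Slc11a1, a metal transporter of the phagosome, held 2.42 to 4.78 CPM in DKO and 2.25 to 5.71 CPM in MttpLKO, against 2.89 to 3.88 CPM in control.

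**Figure D2:**
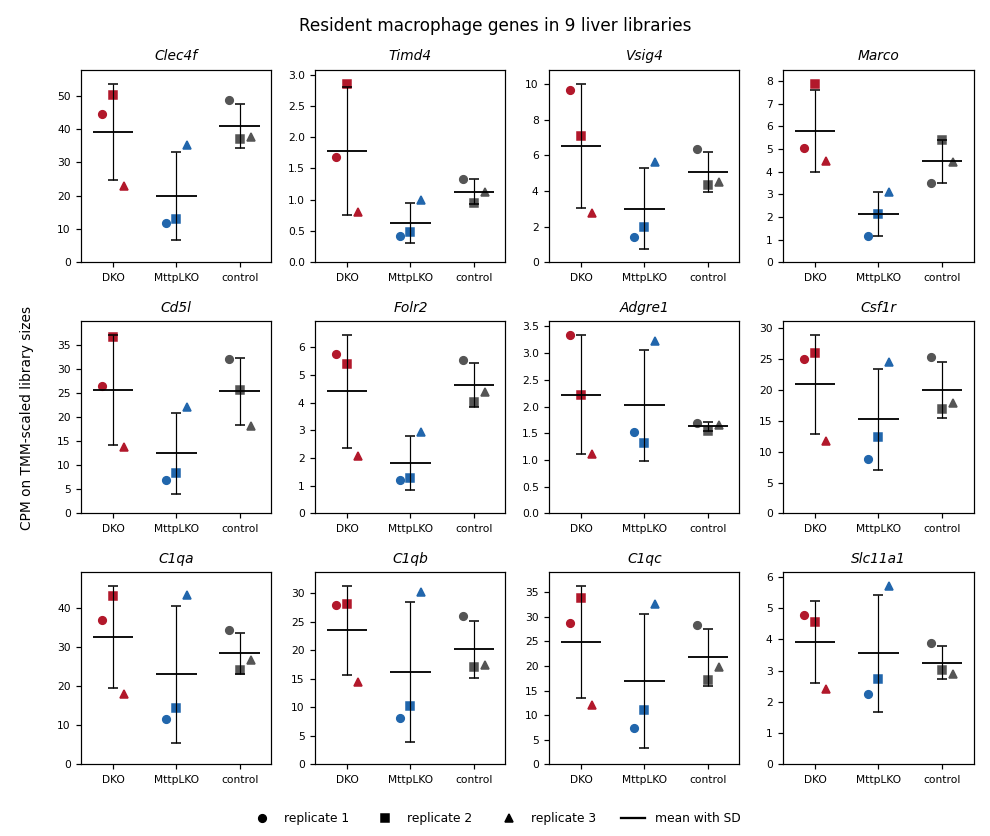
CPM (y axis, TMM-scaled, from 0) of the 12 resident genes in DKO (red), MttpLKO (blue) and control (grey) libraries, with replicates 1 to 3 by symbol and lines for the mean and SD. For Clec4f, DKO replicate 3 lies at 22.8 CPM below the other DKO pools, while MttpLKO replicates 1 and 2 lie at 11.8 and 13 CPM and replicate 3 at 35.2 CPM.

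Among recruited genes, the lipid-associated marker Gpnmb showed the largest log2 fold change of the 33. Gpnmb encodes a transmembrane glycoprotein of lysosomes (chromosome 6, 49036518 to 49058182). It had 55, 8 and 8 counts in DKO replicates 1, 2 and 3 and 31, 57 and 66 counts in MttpLKO, against 3, 7 and 11 counts in control. In CPM this was 2.21, 0.341 and 0.358 in DKO and 1.18, 2.09 and 2.45 in MttpLKO, against 0.121, 0.263 and 0.398 in control. Every MttpLKO pool lay above every control pool, while a single DKO pool did so. Its log2 fold change was -0.96 ± 0.63 in DKO over MttpLKO (edgeR adjusted p = 0.698), 1.87 ± 0.75 in DKO over control (0.388) and 2.83 ± 0.72 in MttpLKO over control (0.235). Over the 17 alternatives, the adjusted p of Gpnmb in MttpLKO over control ran from 0.00981 to 0.66. It was below 0.05 with no count filter (0.012), with DESeq2 (0.00981) and without DKO replicate 1 (0.0369). The DKO value rests on replicate 1, and without it the log2 fold change over control was 0.40.

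Trem2, a lipid and lipoprotein receptor of the same macrophage state (chromosome 17, 48346401 to 48354147), held 1.97, 0.639 and 0.717 CPM in DKO and 0.764, 1.21 and 1.82 CPM in MttpLKO, against 0.526, 0.489 and 0.796 CPM in control. As with Gpnmb, DKO replicate 1 stood above the other DKO pools. The log2 fold change was 0.88 ± 0.50 in DKO over control (edgeR adjusted p = 0.56), 0.16 without that pool, and 1.06 ± 0.49 in MttpLKO over control (0.73). Itgax, the integrin CD11c, held 2.33, 1.15 and 0.896 CPM in DKO and 0.993, 1.87 and 3.97 CPM in MttpLKO, against 1.09, 1.32 and 1.59 CPM in control. Its log2 fold change in MttpLKO over control was 0.77 ± 0.49 (edgeR adjusted p = 0.874) with MttpLKO replicate 3 and 0.10 without it.

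The monocyte genes were low in every library. Ccr2, the receptor that draws monocytes out of the marrow (chromosome 9, 124101950 to 124113557), held 1.65, 0.852 and 0.941 CPM in DKO and 1.49, 1.87 and 2.82 CPM in MttpLKO, against 1.09, 1.5 and 0.832 CPM in control. MttpLKO replicate 1 and control replicate 2 were all but equal, and its log2 fold change was -0.84 ± 0.36 in DKO over MttpLKO and 0.85 ± 0.36 in MttpLKO over control, with edgeR adjusted p of 0.523 and 0.664. Ly6c2, a monocyte surface antigen, held 0.0896 to 0.511 CPM in DKO and 0.257 to 0.741 CPM in MttpLKO, against 0.202 to 0.564 CPM in control, and reads may be shared with its near copy Ly6c1. Ccl2, the ligand of CCR2, held 0.358 to 1.21 CPM in DKO and 0.404 to 0.879 CPM in MttpLKO, against 0.289 to 1.01 CPM in control. Cx3cr1, the fractalkine receptor, did not overlap between MttpLKO (1.29 to 2.08 CPM) and control (1.02 to 1.21 CPM), and together with Gpnmb it made 2 of 21 recruited genes higher without overlap, where 7.27% of all tested genes were. The deposited span of Cx3cr1 holds Wdr48, Gorasp1 and Csrnp1, so its reads are uncertain. Itgam, the integrin CD11b, ranged from 0.551 to 1.19 CPM over the 9 libraries.

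**Figure D3:**
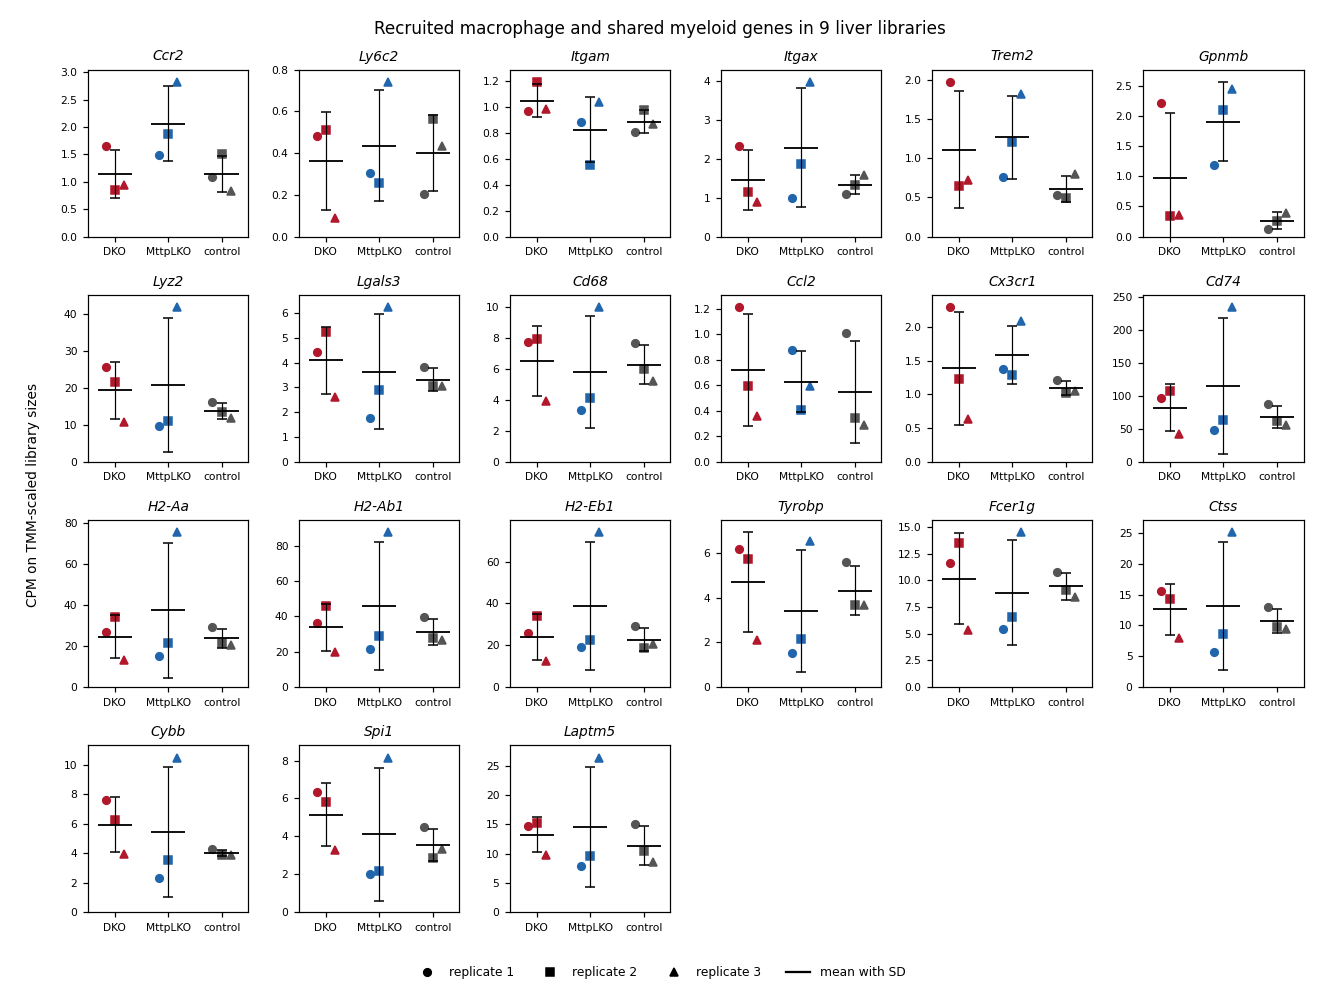
CPM (y axis, TMM-scaled, from 0) of the 21 recruited and shared myeloid genes in DKO (red), MttpLKO (blue) and control (grey) libraries, with replicates by symbol and lines for the mean and SD (the Gpnmb bar in DKO is drawn to 0). MttpLKO replicate 3 is the highest point in 17 of the 21 panels, and Gpnmb in MttpLKO runs from 1.18 to 2.45 CPM against 0.121 to 0.398 CPM in control.

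The class II antigen presentation genes split by library more than by genotype. H2-Eb1, a class II beta chain (chromosome 17, 34305877 to 34316199), held 25.7, 34.0 and 12.2 CPM in DKO and 19.1, 22.7 and 73.9 CPM in MttpLKO, against 29.0, 18.5 and 20.6 CPM in control. MttpLKO replicate 3 was over every other library, and MttpLKO replicates 1 and 2 were inside the control range. The log2 fold change was -0.69 ± 0.49 in DKO over MttpLKO (edgeR adjusted p = 0.721), 0.08 in DKO over control and 0.77 ± 0.49 in MttpLKO over control (0.876). Cd74 followed with 97.2, 107 and 41.5 CPM in DKO and 47.7, 63.1 and 234 CPM in MttpLKO, against 87.4, 61.9 and 55.8 CPM in control. H2-Aa and H2-Ab1, the class II alpha and beta chains of the A locus, were likewise highest in MttpLKO replicate 3, at 75.6 and 87.6 CPM. In MttpLKO replicates 1 and 2, H2-Aa held 15 and 21.7 CPM, against 20.6 to 29.3 CPM in control. H2-Ab1 held 21.5 and 28.8 CPM in those pools, against 26.6 to 39.9 CPM in control. B cells carry these genes too. The 13 tested of 14 listed B and plasma cell markers summed to 43.8 to 105 CPM in DKO and 54.3 to 829 CPM in MttpLKO, against 38.5 to 55.6 CPM in control, with 829 CPM in MttpLKO replicate 3. The 11 tested of 14 T and NK cell markers summed to 4.12 to 7.15 CPM in DKO and 3.86 to 22.9 CPM in MttpLKO, against 4.16 to 9.05 CPM in control, and again MttpLKO replicate 3 held the highest value. The part of these cells in the class II values was not tested.

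For the shared myeloid genes Lyz2, Tyrobp, Fcer1g, Ctss, Laptm5, Cybb, Spi1, Cd68 and Lgals3, MttpLKO replicate 3 was the highest library. Lyz2, the macrophage lysozyme, held 10.8 to 25.6 CPM in DKO, with 9.59, 11.1 and 41.8 CPM in MttpLKO, against 11.9 to 16.2 CPM in control, and its reads may be shared with Lyz1. Tyrobp, the adaptor DAP12 through which TREM2 signals, held 6.19, 5.75 and 2.11 CPM in DKO and 1.53, 2.13 and 6.56 CPM in MttpLKO, against 5.58, 3.69 and 3.69 CPM in control. Fcer1g, the matching Fc receptor adaptor, Ctss, the cathepsin that trims the invariant chain, and Laptm5, a lysosomal membrane protein of leukocytes, were also highest in MttpLKO replicate 3, at 14.5, 25.1 and 26.4 CPM. Cybb, a subunit of the phagocyte NADPH oxidase, held 7.6, 6.3 and 3.94 CPM in DKO and 2.33, 3.57 and 10.5 CPM in MttpLKO, against 4.28, 3.87 and 3.91 CPM in control. Spi1, which encodes the myeloid factor PU.1, held 6.35, 5.83 and 3.27 CPM in DKO and 1.99, 2.17 and 8.15 CPM in MttpLKO, against 4.49, 2.86 and 3.33 CPM in control. In DKO over control Cybb had a log2 fold change of 0.57 ± 0.46 and Spi1 one of 0.54 ± 0.49, with edgeR adjusted p of 0.708 and 0.741. Cd68, a lysosomal protein of macrophages, held 3.94 to 7.92 CPM in DKO and 3.32 to 10.0 CPM in MttpLKO, against 5.21 to 7.68 CPM in control. Lgals3, the lectin galectin 3, held 2.60 to 5.24 CPM in DKO and 1.76 to 6.23 CPM in MttpLKO, against 3.04 to 3.84 CPM in control.

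**Figure D4:**
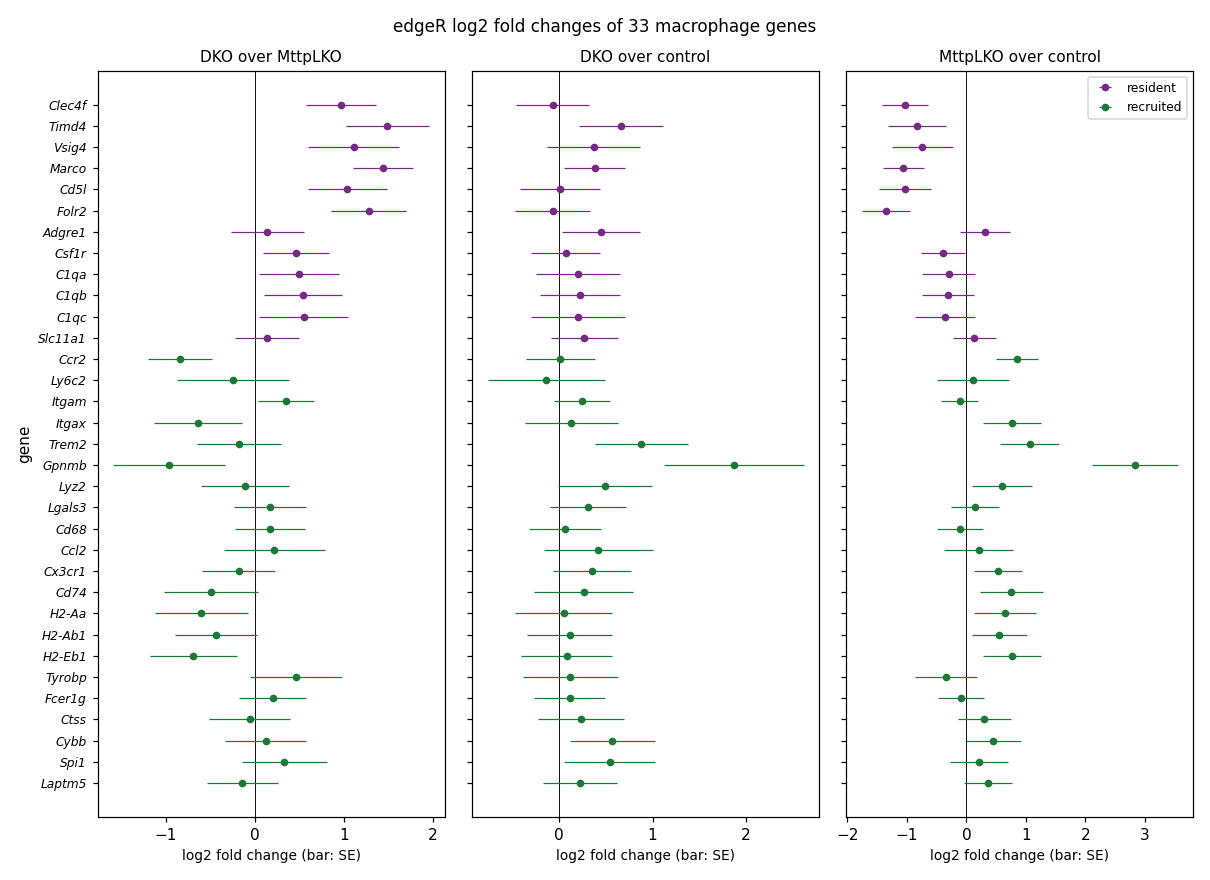
edgeR log2 fold changes (x axis, bars for the SE) of the 33 genes (y axis) in DKO over MttpLKO, DKO over control and MttpLKO over control, with resident genes in purple and recruited and shared genes in green. The 6 genes from Clec4f to Folr2 lie between 0.97 and 1.49 in DKO over MttpLKO and between -1.35 and -0.74 in MttpLKO over control, and none of the 33 passed the adjusted test.

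Since the macrophage genes of a library tended to be high or low together, each gene was also set against C1q within its library, as CPM per 100 CPM of C1qa, C1qb and C1qc summed. This scaling was chosen after the values had been seen, and 3 pools against 3 cannot reach an exact permutation p below 0.10, so the ratios are a description with no test. On it the 3 MttpLKO pools came together for the class II genes. H2-Ab1 stood at 38.5, 43.7 and 44.1 per 100 C1q in DKO and 79.9, 80.8 and 82.7 in MttpLKO, against 45.1, 47.4 and 41.6 in control. H2-Eb1 averaged 29.1 ± 2.88 in DKO and 68.1 ± 3.92 in MttpLKO, against 32.2 ± 0.544 in control (SD, n = 3 each). H2-Aa averaged 30.2 ± 2.01 in DKO and 62.7 ± 7.95 in MttpLKO, against 34.1 ± 2.52 in control, and Cd74 averaged 99.7 ± 5.89, 192 ± 25.0 and 97.4 ± 9.60 in the same order. For these 4 genes all MttpLKO pools lay above all DKO and all control pools, MttpLKO replicates 1 and 2 included. In CPM, MttpLKO replicates 1 and 2 lay inside or below the control range for all 4. Their C1q was low, with C1qa at 11.5 and 14.4 CPM against 24 to 34.2 CPM in control, so their higher ratios rest on a low denominator. Per 100 C1q, the B and plasma cell markers summed to 112, 41.8 and 163 in DKO and 202, 254 and 782 in MttpLKO, against 43.6, 95.4 and 65.2 in control. The T and NK cell markers summed to 5.64, 6.82 and 9.24 in DKO and 14.4, 14.8 and 21.6 in MttpLKO, against 10.2, 12.5 and 6.50 in control. Both lists were also higher per C1q in every MttpLKO pool than in any DKO or control pool, and their part in the class II ratios was not tested. Dendritic cell markers, 9 of 10 tested, summed to 15.3 to 29.1 in DKO and 26.2 to 53.0 in MttpLKO, against 22.5 to 34.4 in control.

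Of the resident genes, Clec4f, Folr2, Vsig4 and Cd5l were lower per C1q in every MttpLKO pool than in any DKO or control pool. Clec4f stood at 47.5, 47.8 and 51.0 per 100 C1q in DKO and 44.1, 36.6 and 33.2 in MttpLKO, against 55.0, 63.5 and 58.6 in control, so that the 3 genotypes did not overlap. Folr2 showed the same order, with 6.15, 5.16 and 4.62 in DKO and 4.55, 3.61 and 2.76 in MttpLKO, against 6.26, 6.91 and 6.84 in control. Vsig4 stood at 6.22 to 10.4 in DKO and 5.32 to 5.57 in MttpLKO, against 7.07 to 7.42 in control. Cd5l stood at 28.2 to 34.9 in DKO and 20.8 to 25.7 in MttpLKO, against 28.5 to 44.1 in control. Timd4 stood at 1.81 to 2.72 in DKO and 0.944 to 1.56 in MttpLKO, against 1.51 to 1.75 in control, so that MttpLKO and control overlapped. Marco overlapped between all 3 genotypes on this scale, with 5.42 to 10 in DKO and 2.94 to 5.99 in MttpLKO, against 3.98 to 9.30 in control. The separation of all 3 genotypes depended on the denominator. Per Csf1r, Clec4f and Folr2 overlapped between DKO and control. Per Tyrobp, Clec4f in DKO overlapped both MttpLKO and control, while Folr2 kept its order. The nearest Folr2 values per C1q, 4.62 in DKO replicate 3 and 4.55 in MttpLKO replicate 1, came from 46 and 32 counts.

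Counted over the 9 resident genes outside C1q, 5 lay higher in DKO than in MttpLKO without overlap and 0 lower (background over all tested genes 0.197% and 4.52%), and in MttpLKO over control 2 lay higher (Adgre1 and Slc11a1) and 4 lower (background 5.45% and 0.21%). Over the 21 recruited and shared genes, 0 lay higher and 13 lower in DKO than in MttpLKO, and 15 lay higher and 0 lower in MttpLKO than in control, against the same backgrounds. Between DKO and control, 1 resident gene lay higher (Timd4) and 3 lower (Clec4f, Folr2 and Csf1r), and 1 recruited gene lay higher and 0 lower, where 0.923% of all tested genes lay higher and 2.5% lower. These genes share 1 denominator, so a low C1q sum in a library raises them all at once. C1q also varied between pools of a genotype, so genes that do not follow it overlap more on this scale. The backgrounds here and for the denominators below are therefore not a like comparison for genes that rise and fall with the denominator. With Csf1r as the denominator, 6 of 11 resident genes lay higher in DKO than in MttpLKO (background 0.353%) and 1 lower (5.12%), and 0 of 21 recruited genes lay higher and 9 lower. In DKO over control, 2 of 11 resident and 3 of 21 recruited genes lay higher (1.65%) and 0 lower (1.49%). In MttpLKO over control, 2 of 11 resident genes lay higher (8.59%) and 5 lower (0.251%), and 14 of 21 recruited genes lay higher and 0 lower. With Tyrobp, 2 of 12 resident genes lay higher in DKO than in MttpLKO (background 0.17%) and 0 lower (2.26%), and 0 of 20 recruited genes lay higher and 8 lower. In DKO over control, 1 of 12 resident genes lay higher (1.17%) and 1 lower (1.01%), and 3 of 20 recruited genes lay higher and 0 lower. In MttpLKO over control, 2 of 12 resident genes lay higher (5.22%) and 4 lower (0.197%), and 15 of 20 recruited genes lay higher and 0 lower. Over the resident genes the count per Tyrobp in DKO over MttpLKO, 2 of 12, is below those per C1q and per Csf1r.

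**Figure D5:**
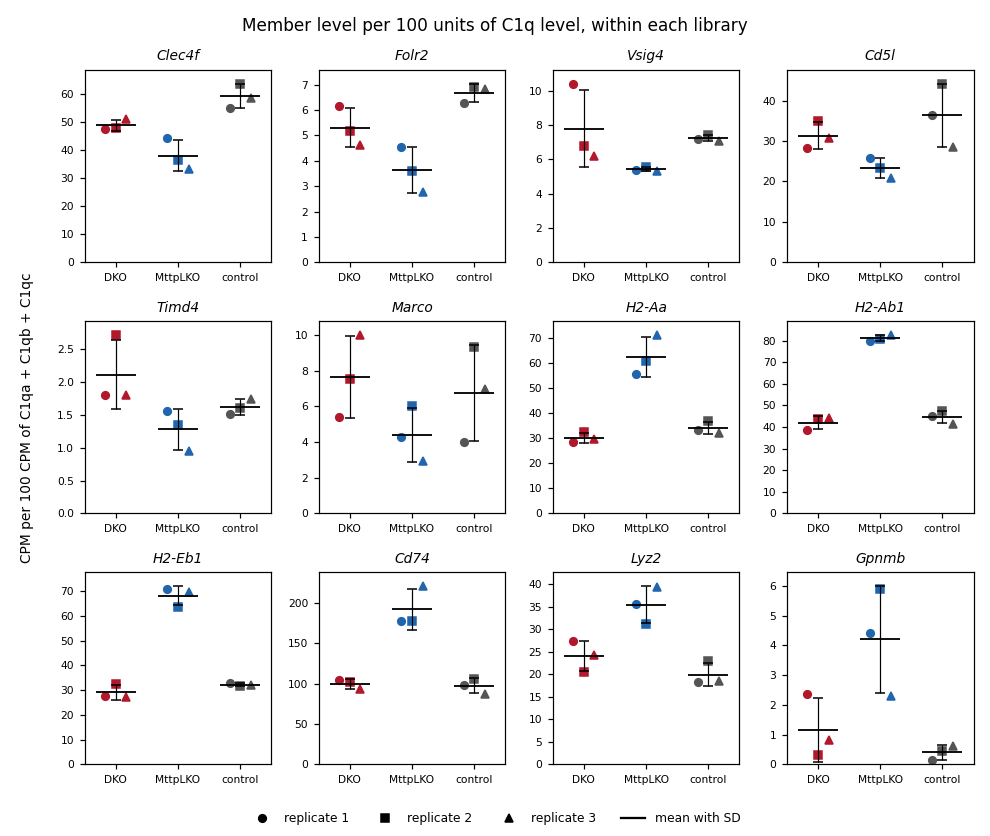
Level per 100 CPM of C1qa, C1qb and C1qc summed (y axis, from 0) for 12 of the genes in DKO (red), MttpLKO (blue) and control (grey), with replicates by symbol and lines for the mean and SD. H2-Ab1 lies at 38.5 to 44.1 in DKO, 79.9 to 82.7 in MttpLKO and 41.6 to 47.4 in control, while Clec4f lies at 47.5 to 51.0 in DKO, 33.2 to 44.1 in MttpLKO and 55.0 to 63.5 in control.

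Other gene lists of the same cells and of their neighbours were read beside the 33. Of 13 further Kupffer cell genes, 0 were called in any comparison by edgeR's quasi-likelihood test, 2 had an unadjusted p below 0.05 in DKO over MttpLKO (9.1% of all tested genes), 0 in DKO over control (11.2%) and 2 in MttpLKO over control (6.97%). The list as a whole had medians of 0.05 in DKO over MttpLKO (10 higher, 3 lower), 0.02 in DKO over control (7 higher, 6 lower) and -0.01 in MttpLKO over control (6 higher, 7 lower). The 2 genes were Siglec1, the sialoadhesin of sinusoidal macrophages, and Cd163, the haemoglobin scavenger receptor. Siglec1 held 3.98, 3.15 and 1.52 CPM in DKO and 0.879, 0.698 and 2.15 CPM in MttpLKO, against 4.49, 2.56 and 2.93 CPM in control, with a log2 fold change of 1.22 ± 0.46 in DKO over MttpLKO (edgeR adjusted p = 0.45) and -1.41 ± 0.46 in MttpLKO over control (0.436). Cd163 held 5.22, 5.32 and 6.59 CPM in DKO and 1.57, 3.38 and 4.49 CPM in MttpLKO, against 6.43, 5.38 and 6.98 CPM in control, with log2 fold changes of 0.86 ± 0.31 (edgeR adjusted p = 0.402) and -0.99 ± 0.30 (0.398). These were the 2 of 13 genes in which all MttpLKO pools lay below all control pools (6.99% of all tested genes). Levels within the 13 differed widely, with Siglec1 at 19 to 111 counts per library and C6 at 4897 to 7581. Which liver cells gave the reads of the 13 genes was not tested, so their medians cannot be read as Kupffer cells alone. Of 10 transcription factors of Kupffer cells, 0 were called in any comparison, and 1 had an unadjusted p below 0.05, Id1 in DKO over MttpLKO, with 14.1 to 28.0 CPM in DKO and 20.1 to 41.7 CPM in MttpLKO, against 16.1 to 26.3 CPM in control.

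Of 20 genes of the lipid-associated macrophage state, 0 were called by edgeR in any comparison. At an unadjusted p below 0.05 stood 3 in DKO over MttpLKO (2 higher, 1 lower, against 9.1% of all genes), 4 in DKO over control (all higher, against 11.2%) and 5 in MttpLKO over control (all higher, against 6.97%). The medians were 0.05 (11 higher, 9 lower), 0.25 (17 higher, 3 lower) and 0.13 (14 higher, 6 lower) in that order. The 2 with the smallest p in MttpLKO over control were Spp1, the secreted matrix protein osteopontin, and Mmp12, the macrophage elastase. Spp1 held 52.7, 57.6 and 78.5 CPM in DKO and 62.3, 72.0 and 109 CPM in MttpLKO, against 51.9, 42.4 and 52.3 CPM in control, with a log2 fold change of 0.73 ± 0.21 in MttpLKO over control (edgeR adjusted p = 0.338). Mmp12 held 0.965, 0.383 and 0.314 CPM in DKO and 0.611, 0.515 and 1.26 CPM in MttpLKO, against 0.243, 0.113 and 0.253 CPM in control, with a log2 fold change of 1.95 ± 0.57 (edgeR adjusted p = 0.362). Levels within this list of 20 differed widely, with Mmp12 at 3 to 34 counts per library and Apoe at 677181 to 1038909. Which liver cells gave the reads of these genes, Spp1 included, was not tested. The medians and direction counts of the list therefore cannot be read as macrophages alone. The 10 tested of 11 class II partner genes had a median log2 fold change of -0.58 in DKO over MttpLKO and 0.78 in MttpLKO over control, and their summed CPM was 37.4 in MttpLKO replicate 3 and 11.6 to 19.9 in the other 8 libraries. Hepatocyte markers, 9 of 10 tested, lay between -0.23 and 0.31 of the control mean on the log2 scale in every library, and sinusoidal endothelial markers, 9 of 9 tested, between -0.46 in MttpLKO replicate 1 and 0.20 in DKO replicate 2. Stellate cell and fibroblast markers, 10 of 10 tested, stood at 0.16 to 0.42 in DKO and 0.12 to 0.95 in MttpLKO, against -0.18 to 0.22 in control, and cycling genes, 5 of 6 tested, at 0.14 to 0.46 in DKO and -0.23 to 1.24 in MttpLKO, against -0.06 to 0.07 in control. Both were highest in MttpLKO replicate 3, the library in which most recruited genes were highest, and their part in those values was not tested.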

How the data were processed

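Read counts per gene were deposited by the authors as whole numbers, not normalized, for 41388 genes in each of 9 libraries, with CPM and RPKM columns that the authors computed from them, per the file headers. Recomputing them from the counts gave largest differences of 5.1e-11 for the deposited CPM and 4.7e-11 for the deposited RPKM. Per the submitters' processing notes, the tools included STAR 2.0.4b, featureCounts 1.4.5 and Subread. The sources used here state no genome build, strand setting or treatment of reads matching several genes, so genes with near-identical copies or overlapping neighbours are uncertain. Of the identifiers, 97.26% matched a symbol, and 82.08% of those matched to GENCODE M21 (GRCm38) had the same start. Coordinates are those of the deposited tables. Promoter windows are from RefSeq, GRCm38.p6.

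Genes were filtered with filterByExpr (minimum count 10) in edgeR 4.0.16 (R 4.3.3), which left 14741, and libraries were scaled by TMM. Total counts were 23268389 to 27918197 per library. Genotypes were compared with edgeR's quasi-likelihood F test in 1 fit of 3 genotype means over 9 libraries, with Benjamini-Hochberg adjustment over all tested genes within a comparison and a threshold of 0.05. The common dispersion of 0.0335 corresponds to a coefficient of variation between pools of 18.3%. The standard error is the log2 fold change over the square root of F. The p-values judge a genotype difference against the spread between pools, not between mice. Replicates of a genotype differed by more than sampling noise, with a chi-square statistic of 21.4 to 71.3 times its degrees of freedom. The fit was tested on simulated data. Printed CPM is on TMM-scaled library sizes, and library scores use log2(CPM + 1). Printed RPKM is the TMM-scaled CPM per kilobase of the deposited gene length. Alternatives, 17 in all, were RLE and upper quartile scaling, no filter, a CPM filter, DESeq2 1.42.0, limma-voom (limma 3.58.1), the compared libraries alone, a replicate block and each library left out.

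The 33 genes and the other lists were chosen with earlier results of these data known. All 33 are given, with the CPM of each library for the 4 resident and 4 recruited genes with the smallest adjusted p in each comparison. Not every log2 fold change of those genes is printed. Of the other lists, the genes named are called genes or among the 2 with the smallest p of a list in a comparison, and some genes that this rule takes are not printed.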

Additional observations from a re-analysis of the deposited data

How the results depend on the processing

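Libraries are pools, so variation between mice, and effects smaller than the spread between 3 pools, could not be seen, and counts of Gpnmb (3 to 66 per library), Timd4 and Ly6c2 limit what those genes show. Replicate numbers did not pair the libraries: the correlations of same-numbered deviations lay between -0.24 and 0.09. With a replicate block, 43 genes were called in DKO over MttpLKO, 40 in DKO over control and 35 in MttpLKO over control, and 0 of the 33 in each. In the block fit the resident medians were 0.85, 0.25 and -0.58.

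With no filter, 180 genes were called in DKO over MttpLKO, 201 in DKO over control and 171 in MttpLKO over control, and with DESeq2 214, 255 and 165, against 59, 49 and 51. Both called 1 of the 33 in DKO over MttpLKO (Marco) and 1 in MttpLKO over control (Gpnmb). The 6 compared libraries alone gave 34 in DKO over MttpLKO and 79 in DKO over control. These causes were not tested.

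Upper quartile scaling turned Ccr2 in DKO over control to -0.01, against 0.01. limma-voom turned the recruited median in DKO over MttpLKO to 0.05, against -0.14, and Spi1 in MttpLKO over control to -0.08, and Cd5l and H2-Eb1 in DKO over control to -0.05 and 0.00.

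Leaving out each library in turn gave 22 to 73 genes called in DKO over MttpLKO, 15 to 100 in DKO over control and 14 to 54 in MttpLKO over control, with 0 to 1 of the 33 in DKO over MttpLKO and 0 to 1 in MttpLKO over control. The resident median ran from 0.48 to 1.55 in DKO over MttpLKO and from -1.29 to -0.27 in MttpLKO over control, and the recruited median from -0.42 to 0.55 and from -0.38 to 0.66. In DKO over control the resident median ran from 0.03 to 0.50 and the recruited median from 0.05 to 0.47. In DKO over MttpLKO, Adgre1 ran from -0.28 to 0.65, Cybb from -0.22 to 1.01, Itgax from -1.15 to 0.03, Trem2 from -0.90 to 0.17 and H2-Eb1 from -1.01 to 0.20. In DKO over control, Clec4f ran from -0.27 to 0.20, Folr2 from -0.31 to 0.26, Ccr2 from -0.35 to 0.26, H2-Eb1 from -0.24 to 0.39, Cd5l from -0.32 to 0.31, Vsig4 from -0.03 to 0.73 and Itgax from -0.38 to 0.38. In MttpLKO over control, Adgre1 ran from -0.20 to 0.54, H2-Eb1 from -0.12 to 1.09, Cybb from -0.45 to 0.81 and Spi1 from -0.78 to 0.54.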

Other observations

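Cytokine and chemokine genes, and others listed for the lipid-associated macrophage state, were read in the same fit. Il1rn, the antagonist of the interleukin 1 receptor, held 7.19, 4.81 and 12.7 CPM in DKO and 6.68, 4.92 and 9.19 CPM in MttpLKO, against 1.90, 3.39 and 2.03 CPM in control. All 6 pools with the liver deletion of Mttp lay above all 3 control pools, with a log2 fold change of 1.75 ± 0.38 in DKO over control (edgeR adjusted p = 0.103) and 1.51 ± 0.37 in MttpLKO over control (edgeR adjusted p = 0.213). Without overlap, 7.27% of all tested genes were higher in MttpLKO than in control. Between DKO and control 18.1% did not overlap, counting both directions. Ccl24, an eotaxin made by macrophages, held 0.884, 0.724 and 0.134 CPM in DKO and 0.115, 0.147 and 0.408 CPM in MttpLKO, against 0.889, 0.903 and 0.687 CPM in control, with a log2 fold change of -1.86 ± 0.62 in MttpLKO over control (edgeR adjusted p = 0.474). Cd63, a tetraspanin of late endosomes, held 7.27, 12.5 and 11.8 CPM in DKO and 4.39, 5.99 and 13.4 CPM in MttpLKO, against 4.12, 4.10 and 5.10 CPM in control, with a log2 fold change of 1.24 ± 0.37 in DKO over control (edgeR adjusted p = 0.236). Lpl, lipoprotein lipase, held 30.4, 29.8 and 28.5 CPM in DKO and 10.5, 11.2 and 26.5 CPM in MttpLKO, against 18.1, 17.8 and 15.3 CPM in control, and every DKO pool lay above every other library. Its log2 fold change was 0.88 ± 0.29 in DKO over MttpLKO (edgeR adjusted p = 0.36). Of all tested genes, 5.67% were higher in DKO than in MttpLKO without overlap.

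Over the other lists, Derl3 was the single gene called. It encodes a protein of endoplasmic reticulum quality control and is listed as a plasma cell gene. It held 24.9, 7.66 and 20.9 CPM in DKO and 6.30, 5.70 and 6.60 CPM in MttpLKO, against 4.45, 4.03 and 4.59 CPM in control, and rose 4.09-fold in DKO over control (log2 fold change 2.03 ± 0.34, edgeR adjusted p = 0.0375). The other B and plasma cell genes did not share its order: Igkc, the kappa light chain, held 30.7, 11.3 and 18.7 CPM in DKO and 16.7, 29.8 and 299 CPM in MttpLKO, against 7.80, 14.9 and 12.2 CPM in control. The neutrophil list had 4 of its 10 genes tested, and they summed to 6.67, 6.09 and 6.14 CPM in DKO and 1.57, 2.79 and 4.49 CPM in MttpLKO, against 12.9, 5.38 and 2.71 CPM in control, so that control replicate 1 was the highest library and control replicate 3 lay inside the MttpLKO range. By edgeR 0 of the 4 were called, and 3 had an unadjusted p below 0.05 in MttpLKO over control, where 6.97% of all tested genes did. Retnlg, a resistin-like neutrophil gene, had the smallest p there, with 0.522, 0.341 and 0.538 CPM in DKO and 0.229, 0.110 and 0.0741 CPM in MttpLKO, against 0.808, 0.301 and 0.289 CPM in control. Stab2, a scavenger receptor of sinusoidal endothelium, held 55.1, 53.9 and 38.0 CPM in DKO and 39.3, 41.1 and 38.1 CPM in MttpLKO, against 63.0, 61.2 and 55.3 CPM in control, with a log2 fold change of -0.60 ± 0.14 in MttpLKO over control (edgeR adjusted p = 0.15).

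In the remaining lists edgeR called 0 genes in any comparison. Of the 10 stellate cell and fibroblast markers, 0 were higher in DKO than in MttpLKO, 8 were higher in DKO than in control and 10 were higher in MttpLKO than in control, with medians of -0.22, 0.32 and 0.51, and 1, 1 and 3 had an unadjusted p below 0.05. Reln, the secreted glycoprotein reelin, held 53.6, 49.1 and 46.1 CPM in DKO and 44.7, 59.5 and 80.4 CPM in MttpLKO, against 32.6, 33.9 and 36.7 CPM in control, with a log2 fold change of 0.84 ± 0.18 in MttpLKO over control (edgeR adjusted p = 0.116). Of the 6 bile duct markers 5 were tested, with medians of -0.21, 0.07 and 0.40 in the same order. Cldn7, a claudin of epithelial tight junctions, held 0.643, 1.06 and 0.762 CPM in DKO and 1.49, 1.76 and 2.30 CPM in MttpLKO, against 1.25, 1.09 and 1.16 CPM in control, with a log2 fold change of -1.17 ± 0.29 in DKO over MttpLKO (edgeR adjusted p = 0.19). The 5 tested cycling genes had medians of -0.06, 0.67 and 0.73, and Mki67, the proliferation antigen Ki-67, held 4.66, 1.58 and 4.70 CPM in DKO and 0.726, 1.03 and 9.34 CPM in MttpLKO, against 1.33, 1.5 and 1.41 CPM in control. The T and NK cell markers had medians of -0.93, -0.39 and 0.63, and the dendritic cell markers -0.66, -0.09 and 0.31. The monocyte genes had -0.36, 0.01 and 0.34, and the general phagocyte genes -0.10, -0.02 and 0.16. Set against the control mean, the T and NK cell list scored -0.23, -0.11 and 0.91 in MttpLKO replicates 1, 2 and 3. The dendritic list scored -0.18, -0.01 and 0.49 there, and the monocyte list -0.18, 0.02 and 0.49. The phagocyte list scored -0.51, -0.35 and 0.8. Of the MttpLKO pools, only replicate 3 stood well above the control mean in these lists.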
